A study of Mus musculus with 4 samples.

Results

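ER, Golgi and clathrin coat trafficking genes were picked from the table of neuropil polyA sites by gene symbol, by a rule that uses no tag count. Symbols of the Sec, COPI, Tmed, adaptor protein (AP-1 to AP-4), clathrin, Ssr, Sar1, golgin, Trappc, protein disulfide isomerase and reticulon genes were taken, together with Picalm, Arcn1, Canx and Calr. They covered 79 of 9297 polyA sites and 62 of 7202 gene names. A polyA site is the place where an mRNA is cut and receives its poly(A) tail, so each site stands for one 3′ end of a transcript.

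All 4 libraries belonged to 1 group, the CA1 neuropil of C57BL/6 mice with the genotype Camk2a-Cre x Pabpc1-cTag, and were numbered 1 to 4. Neuropil is the layer beside the CA1 cell bodies and holds dendrites, axons and glia. In these mice Cre under the Camk2a promoter turns on a GFP fusion of Pabpc1, which binds poly(A) tails, in pyramidal neurons. In cTag-PAPERCLIP, ultraviolet light fixes this protein to the RNA it holds, and the purified fragments, which come from 3′ ends, are sequenced as tags. The labels of these libraries give no age, and per the methods each library pooled several mice. With 1 group there was no contrast between conditions, and the values below describe the neuropil and its spread over libraries. Because the tissue was pooled, fewer cells of a type and less RNA per cell cannot be told apart.

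The table appears, from its title, to hold only neuropil tags that overlap polyA sites known from Camk2a-expressing cells, so tags elsewhere were not analysed here. At its sites replicates 1 to 4 held 16017, 6609, 5947 and 6099 tags, and shares are of these totals. Over the whole table replicates 3 and 4 differed least, with a chi-square per degree of freedom of 2.57 where counting error alone gives about 1, and every other pair of libraries lay between 13.3 and 20.8. Sites whose sequence resembles the short noncoding RNA Bc1 took from 2.07% to 32.9% of a library, highest in replicate 1, which lowers the share of every other gene there. Markers of pyramidal neurons took from 0.488% to 0.730% of tags (8 of 10 genes seen, Camk2a and Slc17a7 not listed by name), and astrocyte markers from 0.082% to 0.262% (6 of 6). Oligodendrocyte markers took from 0.131% to 0.530% (5 of 5), interneuron markers from 0.025% to 0.0492% (3 of 6, with Gad2, Vip and Slc32a1 not listed), and microglia markers 2 tags (1 of 4). Blood markers took from 0.025% to 1.28% (3 of 5). The part of these other cells in the values below was not tested.

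Proteins of the secretory pathway are made at the endoplasmic reticulum (ER), enter it through the Sec61 channel, and fold there with the help of lectin chaperones and disulfide isomerases. COPII-coated carriers take them to the Golgi, and COPI-coated carriers return cargo and move it between Golgi cisternae. Clathrin and its adaptors form carriers at the trans-Golgi, at endosomes and at the plasma membrane, where AP-2 serves the uptake of synaptic receptors. Neuronal dendrites contain ER throughout, with smooth tubules shaped by reticulons, while Golgi stacks lie mostly in the cell body and in Golgi outposts of larger dendrites.

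The 6 3′ ends with the most tags among these genes are shown first, because the listed positions and their polyA signals define what was counted. The proximal sites of Rtn1 and Golga7b are added as ends without a signal. Each line gives 30 bases of the RefSeq GRCm38.p6 genome, 5′ to 3′ on the strand of the gene, and capitals mark the polyA signal AATAAA or ATTAAA nearest to the listed position.
Rtn1 distal site, chr12:72211750-72211779, minus strand: aatgcatcAATAAAtgtgactaaatgtaga
Rtn1 proximal site, chr12:72212281-72212310, minus strand: tggtttttgatttcgtgttgctaaaaaaaa
Rtn4 site, chr11:29742890-29742919, plus strand: aaagtatcAATAAAgcttatagacttacct
Rtn3 distal site, chr19:7425901-7425930, minus strand: taattataAATAAAaaacacagtgactgtc
Tmed9 site, chr13:55597656-55597685, plus strand: ggtttcccAATAAAaaagaaaaaagaaaaa
Ap1s1 site, chr5:137035001-137035030, minus strand: tcttctgaAATAAAaggaaaaagtgtttct
Calr site, chr8:84842092-84842121, minus strand: aaatttctATTAAAttaagttttgtgtctt
Golga7b proximal site, chr19:42269100-42269129, plus strand: gaaaactttggacgaatgaagctggacaga
The proximal sites had neither hexamer within 50 bases on either side and carry no capitals.

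Most of the sites were ordinary 3′ ends. By GENCODE vM21, 72 of the 79 (91.1%) lay in a 3′UTR, 5 lay between genes and 2 in an intron, and none lay in a coding or noncoding exon. Among all sites 76.5% lay in a 3′UTR and 15.3% between genes. AATAAA or ATTAAA occurred within 50 bases on either side of 67 sites (84.8%, 95% Wilson interval 75.3% to 91.1%), against 78.1% of all sites. Searching only the 50 bases upstream gave 31.6%. The median start of the signal was -1 base from the listed position, with AATAAA starting 6 bases downstream of it at the distal Rtn1 site and at the position itself at the distal Rtn3 site. Of the 79 sites, 56 lay within 100 bases upstream of the 3′ end of an annotated transcript. The 3′UTR up to the site, counted from the end of the coding sequence with the stop codon included, had a median of 847.5 bases and ran from 177 bases in Rtn3 to 6152 bases in Tmed8. The median over all 3′UTR sites was 1134 bases. The median GC content within 100 bases was 38.8%, against 37.3% over the table. These are descriptions of sites and were not tested.

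The trafficking genes held 272 tags, namely 97, 49, 56 and 70 in replicates 1 to 4. Their share was 0.606% of replicate 1 (95% Wilson interval 0.497% to 0.738%), 0.741% of replicate 2 (0.561% to 0.979%), 0.942% of replicate 3 (0.726% to 1.22%) and 1.15% of replicate 4 (0.909% to 1.45%). The mean was 0.859% ± 0.237 (SD, n = 4). The intervals of replicates 1 and 4 did not overlap. With Bc1-like sites left out the shares were 0.893%, 0.823%, 0.967% and 1.17%, replicate 2 was lowest, and the intervals of replicates 1 (0.732% to 1.09%) and 4 (0.929% to 1.48%) overlapped. These intervals, like the tests below, take in counting error alone, since PCR copies are not separate molecules.

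Detection was sparse, and 38 sites and 24 genes were seen in 1 library only. Tags in more than 1 library were found at 41 of the 79 sites (51.9%), against 34.2% of all sites, and these sites carried 83.1% of the tags of the trafficking genes. Of the sites, 21 were seen in 2 libraries, 15 in 3 and 5 in all 4. The 5 sites with tags in every library were the distal ends of Rtn1 and Rtn3 and the ends of Copa, Ap3d1 and Sec14l1. A single tag was all that 32 sites had (40.5%, against 57.2% of the table). Without replicate 1, 25 sites had tags in more than 1 library.

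**Figure D1:**
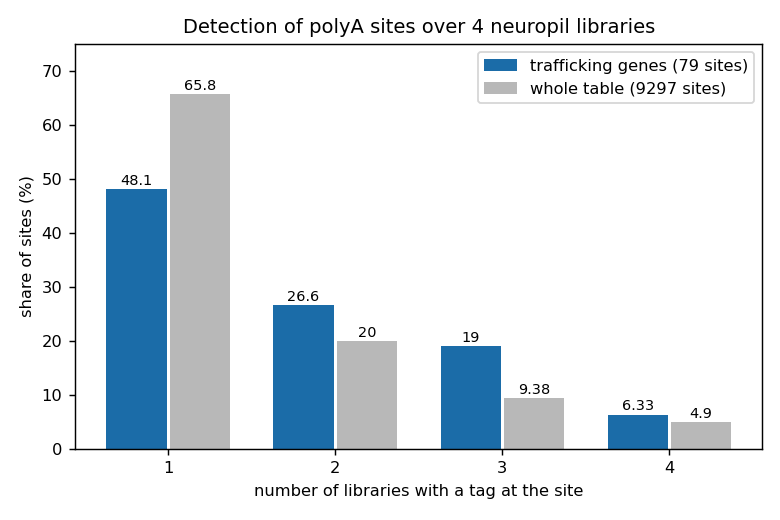
Share of polyA sites (vertical axis, %) by the number of libraries with at least 1 tag at the site (horizontal axis), for the 79 sites of trafficking genes and the 9297 sites of the table. In the trafficking genes 48.1% of sites were seen in 1 library, against 65.8% over the table.

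Of the 120 protein-coding genes in vM21 whose symbol fits the rule, 62 (51.7%) were in the table, against 29.4% of all 21924 protein-coding genes. The other 58 were not listed under their own name. That is not a count of 0 for the gene, since tags outside the listed sites were not analysed here. Among the 62 genes, 19 had 1 tag, 20 had at least 5 tags and 4 had at least 10. Tags were found in every library for 7 of the 62 genes (11.3%, against 7.76% of all gene names).

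The reticulons, which bend the ER membrane into tubules, held more tags than any other family. Rtn1 to Rtn4 had 84 of the 272 tags (30.9%), with 31, 5, 23 and 25 in replicates 1 to 4 and a mean share of 0.266% ± 0.16 (SD, n = 4). Without 2 tags far from Rtn4, described below, they had 82. Every other family had at most 24 tags under its own gene names. Replicate 2 held the fewest reticulon tags, and there ER folding genes (6 tags) and genes with a Golg symbol (10 tags, of which 5 were from Golga7b) had more. Replicates 3 and 4 had the highest shares (0.387% and 0.410%). Tags lie at the 3′ end and were not scaled by transcript length. The long and short proteins of a reticulon gene share its last exons, so tags at these ends do not tell them apart.

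**Figure D2:**
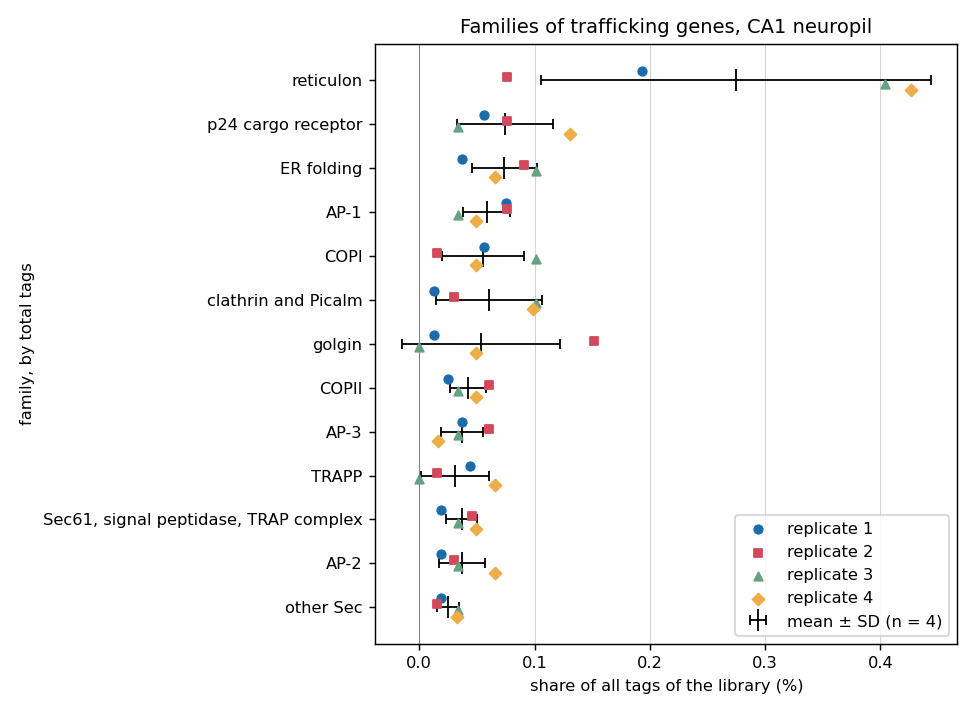
Share of all tags of a library (horizontal axis, %) for each of 13 families of trafficking genes with at least 1 tag, with a point per replicate and the mean ± SD over 4 replicates in black. Families were drawn by symbol, so the reticulons include Rtn4r, the golgins include Golga7b and the p24 family takes every Tmed symbol. So drawn, reticulons reached 0.426% in replicate 4. Their lowest value, 0.0757% in replicate 2, lay within the range of other families.

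Rtn1, a reticulon enriched in neurons, had 19, 3, 11 and 13 tags in replicates 1 to 4. Its mean share was 0.141% ± 0.0748 (SD, n = 4), the 58th highest of the 7202 gene names. Replicate 2 was lowest, at 0.0454%, and replicate 4 highest, at 0.213%. Nearly all of these tags fell at 1 end. The distal site (chromosome 12, position 72211777, minus strand), 761 bases past the coding sequence and just short of an annotated transcript end, held 17, 3, 10 and 10 tags. The proximal site at 72212295, 243 bases past the coding sequence and just short of the end of a shorter annotated transcript, held 2, 0, 1 and 3 tags. The distal end was the more used one in all 4 libraries and took 40 of 46 tags (87.0%).

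Rtn4, known as Nogo and studied as an inhibitor of axon growth, had 5, 0, 8 and 6 tags, a mean share of 0.066% ± 0.0614 (SD, n = 4), and 0.0432% without replicate 3. Replicate 2 had none and replicate 3 the highest share, at 0.135%. Its 3′UTR site (chromosome 11, position 29742895, plus strand) held 17 of the 19 tags (4, 0, 7 and 6). The other 2 tags were at positions 30280605 and 30607316, 536 kb and 863 kb past the end of Rtn4, in no annotated gene on that strand, so the name does not tie them to Rtn4 mRNA.

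Rtn3 had 7, 2, 3 and 6 tags, a mean share of 0.0557% ± 0.0297 (SD, n = 4), and tags in every library. Its distal site (chromosome 19, position 7425922, minus strand), 1911 bases past the coding sequence, held 6, 2, 3 and 3 tags. Sites at 826 and 177 bases held 3 tags and 1 tag. The shares of Rtn3 and Rtn4 overlapped over the libraries, and Rtn1 was above both in every library. Rtn2 had 1 tag, in replicate 3. Rtn4r, which encodes the receptor for Nogo and is not itself a reticulon, had 1 tag in each of replicates 3 and 4.

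**Figure D3:**
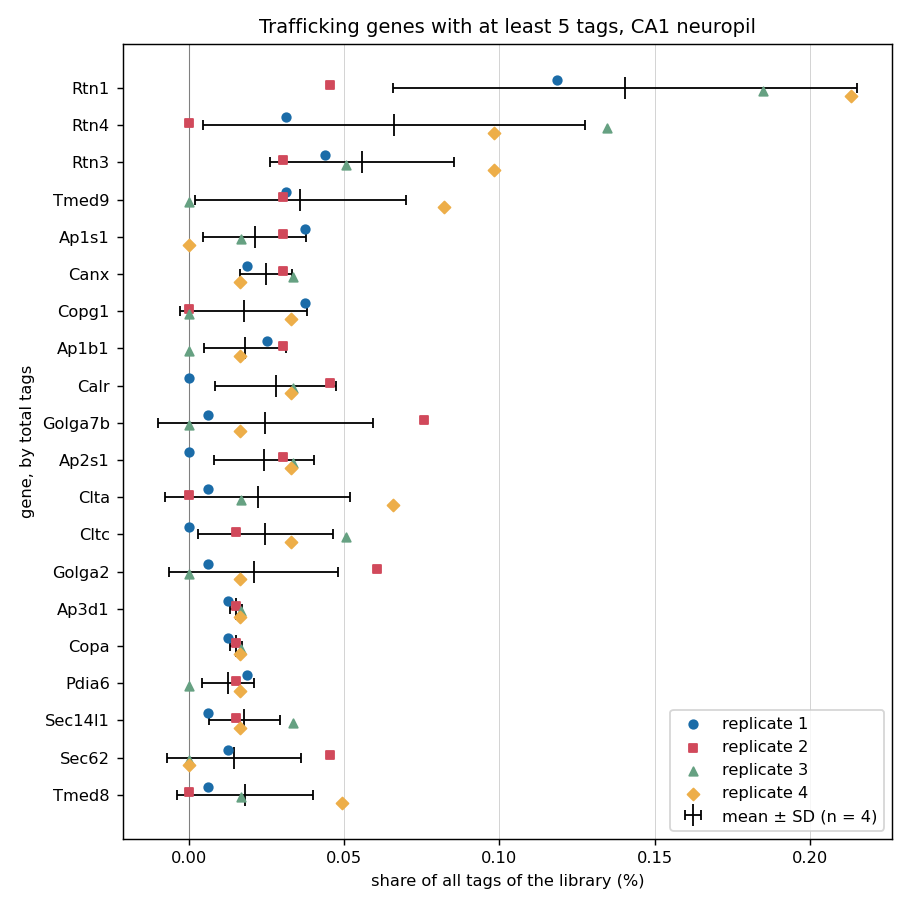
Share of all tags of a library (horizontal axis, %) for the 20 trafficking genes with at least 5 tags, with a point per replicate and the mean ± SD over 4 replicates in black. Rtn1 lay between 0.0454% and 0.213%, and most other genes had a point at or near 0.

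Genes of protein import into the ER that fit the naming rule had few tags. The Sec61 channel genes Sec61a1, Sec61a2, Sec61b and Sec61g and the signal peptidase subunits Sec11a and Sec11c were not listed. Sec62, which assists import after translation, had 2, 3, 0 and 0 tags, and its partner Sec63 had 1 tag in replicate 4. Of the TRAP complex, which sits beside the channel, Ssr3 had 1, 0, 1 and 2 tags and Ssr1 had 1 tag. The 4 genes that were seen held 11 tags in all (0.0367% ± 0.0137, SD, n = 4).

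The folding enzymes and chaperones of the ER were seen in each library, with 6, 6, 6 and 4 tags and a mean share of 0.0737% ± 0.0283 (SD, n = 4). This leaves out 8 tags in the 3′UTR of Pdia4 that were listed as Mir704, which would place these genes above those with a Tmed symbol. Canx, the membrane-bound lectin chaperone calnexin, had 3, 2, 2 and 1 tags spread over 3 sites in its 3′UTR, at 325, 1304 and 1789 bases past the coding sequence. The calnexin sites held 2, 3 and 3 tags in that order, and both tags of the most proximal came from replicate 3. Calr, its soluble relative calreticulin, had 0, 3, 2 and 2 tags at a single site (chromosome 8, position 84842108, minus strand), 542 bases past the coding sequence and next to ATTAAA. The disulfide isomerase Pdia6 had 3, 1, 0 and 1 tags, and Pdia3, which works with both lectin chaperones, had 2 tags, both in replicate 3.

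The COPII coat, which forms carriers that leave the ER, had 13 tags over 7 of 13 annotated genes (4, 4, 2 and 3 tags in replicates 1 to 4). Sec23a, an inner coat subunit that activates the GTPase Sar1, had 1 tag in each library and 4 in all. The GTPase Sar1a had 0, 1, 0 and 2 tags. The cargo-binding subunit Sec24d had 1 tag in each of replicates 1 and 3. Sec24a, Sec23b, the outer coat subunit Sec31a and the scaffold Sec16a had 1 tag each, and Sec13 was not listed.

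The COPI coat had 19 tags over 5 of 9 genes (9, 1, 6 and 3). Copg1, the gamma subunit, had 6, 0, 0 and 2 tags, with none in replicates 2 and 3. Copa, the alpha subunit, had 2, 1, 1 and 1 tags, and with Ap3d1 it had the smallest spread of the genes with at least 5 tags (0.0152% ± 0.00195, SD, n = 4). Copb2 had 3 tags and Copb1 had 2, all in replicate 3. Copg2 had 1 tag in an intron (chromosome 6, position 30819843, minus strand), where the 30 bases around the site occur 22 times in the genome, so that tag may belong to any of these copies.

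The p24 proteins are cargo receptors that cycle between ER and Golgi. All genes with a Tmed symbol were taken as this family, and whether each encodes a p24 protein was not examined. These genes had 24 tags (9, 5, 2 and 8) over 6 of 11 genes, of which Tmed9 had 12 and Tmed8 had 5. Tmed9 held 5, 2, 0 and 5 tags at 1 site (chromosome 13, position 55597662, plus strand), and its mean share was 0.0359% ± 0.034 (SD, n = 4), and 0.0205% without replicate 4. Tmed8 had 1, 0, 1 and 3 tags at 2 sites. The Tmed8 site at 87186899 of chromosome 12 lay in an intron, 20634 bases upstream of the 3′UTR site, held 3 of the 5 tags and had no polyA signal within 50 bases. Tmed2, Tmed4 and Tmed5 had 2 tags each and Tmed3 had 1.

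Golgins, long coiled-coil proteins that catch carriers at the Golgi, had 8 tags over Golga2, Golga4 and Golgb1 (1, 5, 0 and 2 in replicates 1 to 4). Golga2, which encodes the cis-Golgi protein GM130, had 1, 4, 0 and 1. Golgb1 and Golga4 had 1 tag each. The mean share of these genes was 0.0287% ± 0.0344 (SD, n = 4), and 0.013% without replicate 2. Golga7b, which despite its name encodes a partner of palmitoylating enzymes, had 1, 5, 0 and 1 tags. The TRAPP tethering complexes had 12 tags over 8 of 15 genes (7, 1, 0 and 4), with a mean share of 0.0311% ± 0.0293 (SD, n = 4), and 0.0196% without replicate 4. Trappc12 had 3 tags, Trappc10 and Trappc6b had 2 each, and Trappc2, Trappc4, Trappc11, Trappc5 and Trappc3l had 1 each. The tags named Trappc5 and Trappc3l lay 432 kb and 76.6 kb past the genes of their name, at Bc1-like sequence. The TRAPP values above include both, and the Trappc5 tag was the only TRAPP tag of replicate 2. The Trappc3l tag was 1 of the 7 of replicate 1.

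Clathrin heavy chain, Cltc, had 0, 1, 3 and 2 tags and light chain a, Clta, had 1, 0, 1 and 4. Light chain b, Cltb, had 0, 1, 2 and 0 tags, and Picalm, an assembly protein for clathrin at the plasma membrane, had 1. Together the clathrin genes and Picalm took 0.0605% ± 0.0458 (SD, n = 4), with 2, 2, 6 and 6 tags. Replicates 3 and 4 were above replicates 1 and 2 in share, and replicates 3 and 4 were also the pair that differed least over the whole table. Whether the split is particular to clathrin genes was not tested.

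Among the adaptors, AP-1 (trans-Golgi and endosomes) had 22 tags, AP-3 (endosomes) 13 and AP-2 (plasma membrane) 11. The AP-4 genes that fit the naming rule, Ap4b1, Ap4m1 and Ap4s1, were not listed. The AP-2 count leaves out 8 tags in the 3′UTR of the AP-2 gene Ap2a2 that were listed as Mir7063, which would place AP-2 above AP-3. The mean shares were 0.0583% ± 0.0206 for AP-1, 0.037% ± 0.0182 for AP-3 and 0.0371% ± 0.0201 for AP-2 (SD, n = 4 each), which overlapped. The small AP-1 subunit Ap1s1 had 6, 2, 1 and 0 tags and the large subunit Ap1b1 had 4, 2, 0 and 1. Ap1m1 and Ap1s2 had 3 tags each. The small AP-2 subunit Ap2s1 had 0, 2, 2 and 2 tags at a single site, Ap2b1 and Ap2m1 had 2 each, and Ap2a1 had 1. Of the AP-2 tags, 1 named Ap2m1 lay 2995 bases past that gene. The AP-3 genes Ap3d1 (2, 1, 1 and 1 tags), Ap3b2 (3 tags), Ap3m2 (3) and Ap3s2 (2) were each seen in more than 1 library. Ap3b2 and Ap3m2 encode the subunits of the neuronal form of AP-3, and the widely expressed Ap3b1 and Ap3m1 were not listed.

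The other genes with a Sec number had 8 tags. Sec14l1, a lipid-transfer-type protein outside the coats, had 1, 1, 2 and 1 tags, the SNARE gene Sec22b had 2 and Sec22c had 1.

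A further 8 sites with 24 tags lay inside genes of the rule but carried the name of a small RNA or neighbouring gene, and they are not counted above. The 3′UTR of Ap2a2, an AP-2 alpha subunit, (chromosome 7, position 141632972, plus strand) held 3, 4, 1 and 0 tags under the name Mir7063, more than any AP-2 gene under its own name. The 3′UTR of Pdia4, an ER disulfide isomerase, held 1, 6, 1 and 0 tags under the name Mir704 (chromosome 6, position 47796165, minus strand). Sec24c had 3 tags under the name Mir6946. Ap1g1, Copz1, Trappc9, Trappc13 and Tmed7 had 1 tag each under other names. Under either name 70 genes of the rule had a tag. These include Trappc5 and Trappc3l, whose only tags lay far outside those genes, and Copg2, whose only tag lay at repeated intron sequence. With every site named by its GENCODE gene, the mean share was 0.925% ± 0.229 (SD, n = 4).

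One question of the study was the choice of 3′ end among dendritic mRNAs. More than 1 site seen in more than 1 library was found in 6 trafficking genes (17.1% of the 35 genes with such a site, against 7.33% over the table). The most distal sites of these genes held 31, 8, 13 and 16 tags and the most proximal 6, 4, 2 and 9 in replicates 1 to 4. The distal share was 83.8%, 66.7%, 86.7% and 64.0%, with a mean of 75.3% ± 11.6 (SD, n = 4), beside 61.7% ± 5.74 for the 215 such genes of the table. Rtn1 gave 46 of these 89 tags, and without it the mean was 64.6% ± 13.9. Over all listed sites, with 14 genes, the distal share was 58.7%. That value counts the tag 863 kb past Rtn4 as its distal site and the 17 tags of its 3′UTR site as proximal. Of the 6 genes, Rtn1, Rtn3 (14 distal and 3 proximal tags) and Copg1 (6 and 2) had more distal tags, Golga7b (3 and 4) and Tmed8 (2 and 3) had more proximal tags, and Canx had 3 of each. Without replicate 1 a single gene kept such a pair, and the distal share was 89.3%.

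**Figure D4:**
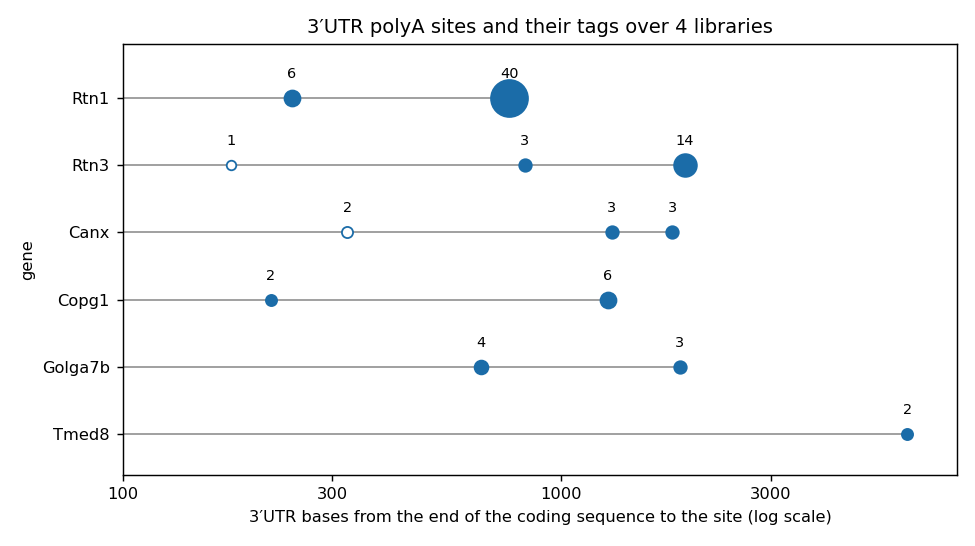
PolyA sites in the 3′UTR of 6 trafficking genes, by their distance from the end of the coding sequence in bases (horizontal axis, log scale). A gene was drawn if several of its sites, intron sites included, each held tags of more than 1 library. The number above each point and its area give the tags over 4 libraries, and open points were seen in 1 library; the intron site of Tmed8 is not drawn. The distal sites of Rtn1 and Rtn3 hold 40 and 14 tags.

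Differences between libraries were set against the counting error of tags in every gene of the table. With at least 20 tags, 211 genes could be tested, and Rtn1 was the only trafficking gene among them. Its tags (19, 3, 11 and 13, where library totals alone would give 21.3, 8.77, 7.89 and 8.09) did not pass the exact multinomial test (p = 0.0401, adjusted p = 0.0564), while 70.1% of the 211 genes did. Rtn1 passed without replicate 1 (adjusted p = 0.0345, exact multinomial test), where 75.9% of 112 genes passed. It also passed without replicate 3 (adjusted p = 0.0391, exact multinomial test), where 70.3% of 158 genes passed. With totals free of Bc1-like sites its adjusted p was 0.145 (exact multinomial test), and 68.2% of 211 genes passed. With a minimum of 10 tags 40.9% of 533 genes passed, and 1 of the 4 trafficking genes did. This was Rtn4 (exact multinomial test, adjusted p = 0.0096), for which the adjusted p was 0.0414 with totals free of Bc1-like sites, 0.0658 with TMM library sizes and 0.0552 without replicate 2. Rtn1 (exact multinomial test, adjusted p = 0.0862), Tmed9 (0.17) and Rtn3 (0.463) did not pass. What set the libraries apart was not tested.

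Site usage was compared between libraries with Fisher's exact test in genes that had several sites, each present in more than 1 library. With at least 20 tags, 26% of 50 genes had an adjusted p under 0.05. Rtn1, the only trafficking gene tested, did not (p = 0.7, Fisher's exact test, adjusted p = 0.777). With at least 10 tags 13.3% of 105 genes passed, and Rtn1 and Rtn3 did not (Fisher's exact test, adjusted p = 0.951 for both). Rtn1 and Rtn3 had 6 and 3 proximal tags in all, which limits this comparison.

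Genes of the same pathway outside the naming rule were sampled from a list of 90 symbols. Of these, 61 were in the table, 33 had a site seen in more than 1 library, and they held 228 tags. Clathrin-mediated endocytosis had 109 tags over 16 of 22 genes (0.335% ± 0.0512, SD, n = 4), more than the clathrin chains, Picalm and AP-2 together. Its highest genes were Epn1 (14, 9, 4 and 2 tags), which encodes the clathrin adaptor epsin, Dnm1 (4, 7, 2 and 4), which encodes the membrane-cutting GTPase dynamin, and Dnajc6 (5, 0, 4 and 6), which encodes the uncoating factor auxilin. Genes of ER shape had 32 tags over 7 of 12 genes, 16 of them from Arl6ip1 (7, 4, 2 and 3), whose product shapes ER tubules. Translocation and folding genes had 46 tags over 17 of 25, with Hspa5, the ER chaperone BiP, at 2, 1, 2 and 0. Among its import genes, the signal peptidase subunit Spcs2 had 3, 0, 2 and 1 tags and Spcs3 had 0, 0, 1 and 1. ER-to-Golgi genes had 41 tags over 21 of 31, of which 4 had a site seen in more than 1 library. Epn1 was the only gene of the list with enough tags for the test of shares and did not pass it (exact multinomial test, adjusted p = 0.261).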

How the data were processed

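The authors deposited tag counts, whole numbers without normalization, for polyA sites of 4 neuropil cTag-PAPERCLIP libraries, by the table's title at sites that overlap those of Camk2a-expressing cells. Per the study's methods tags were mapped to the genome and clustered into sites with CTK. The submitters' processing notes name mm10, cutadapt and Novoalign. The handling of duplicate tags and of tags with several matches was not given in the sources used here. The labels number the libraries as replicates and the methods describe a pool of several mice for each, and p-values set differences between these libraries, which may be partly technical, against counting error.

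The naming rule uses no tag count, but the choice of these genes and of the lists was made with earlier results of these data known. Named were genes with at least 20 tags, the top gene of each family, genes with several sites each present in more than 1 library, sites in every library, and sites with at least 5 tags in an intron, between genes or over 1 kb outside the gene of their name. Other genes were named after their values were seen. No site lay past the end of a GRCm38 chromosome. Sites were annotated with GENCODE vM21 in Python 3.11.15 (pysam 0.24.0) on the strand of the site. Bc1-like sites held, within 75 bases and on either strand, 10 or more different 12-base stretches from the first 74 bases of Bc1. Shares are percentages of a library's tags, with 95% Wilson intervals in single libraries. Shares of genes were tested with an exact multinomial test against library totals (chi-square distribution above 150 tags), and site usage with Fisher's exact test (R 4.3.3), each with Benjamini-Hochberg adjustment over all genes tested and a threshold of 0.05. TMM sizes came from edgeR 4.0.16. Both tests were tested on simulated data.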

Additional observations from a re-analysis of the deposited data

How the results depend on the processing

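Of 118 recomputed values of the main results, 109 stayed within the spread between replicates or within 1.5 times the main count, as did 98 of 100 for single genes. A mean of 4 shares of fixed genes always stays within that spread when 1 replicate is left out. These tallies, which hold many such values, therefore do not measure stability. The mean share of trafficking genes ran from 0.763% to 0.944% without one replicate and from 0.775% (TMM sizes) to 0.964% (totals without Bc1-like sites) under other totals. The mean share moved by over 1.5 times without 1 library in 9 of 20 genes with at least 5 tags (Rtn4, Tmed9, Copg1, Golga7b, Clta, Cltc, Golga2, Sec62 and Tmed8) and in 2 of 13 families drawn by symbol, golgins (0.0532%, and 0.0206% without replicate 2) and TRAPP (0.0311%, and 0.0196% without replicate 4). Leaving out misplaced or Bc1-like sites, chosen after seeing the data, gave 0.824%. Tags in at least 3 libraries were found at 20 sites, and without one replicate 25 to 36 sites had tags in more than 1 library. A polyA signal was found at 31.6% of sites with 50 bases upstream only (30.3% of the table) and at 93.7% with 10 further hexamers (92.5%). The count of trafficking genes whose share differed between libraries was 0, and 1 with at least 10 tags, where 70.1% and 40.9% of all genes tested passed. It ran from 0 to 1 without one replicate, where 61.3% to 75.9% of all genes tested passed. With at least 50 tags no trafficking gene could be tested. The distal share was 58.7% over all sites, a setting that counts a tag far outside Rtn4 as the distal site of that gene. It ran from 72.7% to 89.3% without one replicate. The cause of these shifts was not tested. At unadjusted p under 0.05, 1 trafficking gene (Rtn1) of the 1 tested by share passed, where at least 70.1% of 211 genes passed. By site usage 0 of the 1 tested passed, where at least 26% of 50 genes did. No paired analysis was possible because the labels give 1 group. Depth limits most genes, since 42 of 62 had under 5 tags. None of 19 sets of 4 values had a replicate far from the others by Dixon's limit, where chance gives 0.95.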
